A study of Homo sapiens with 4 samples.

Results

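hsa-miR-125a-5p and hsa-miR-125a-3p are the mature miRNAs cut from the 5′ and the 3′ arm of 1 hairpin, MIR125A. They were taken by name from the count tables, where they are 2 of 2366 human miRNAs, and both passed the filter on low counts. hsa-let-7e-5p, from the neighbouring hairpin, serves below as the reference within each library. Small RNAs were sequenced from K562, an established human chronic myeloid leukaemia line, carrying dCas9-KRAB, a Cas9 that cannot cut DNA and is fused to a repressor of transcription. In each of 2 polyclonal, doxycycline-inducible lines, 1 per guide RNA (gRNA1 and gRNA2), the guide RNA was directed at ERH. Cells given 0.05 µg/ml doxycycline for 5 days are the ERH knockdown libraries, and cells of the same 2 lines without doxycycline are the controls, so each group has 2 libraries. Doxycycline was added only to the knockdown cells, so its effect and that of ERH cannot be told apart here, and ERH mRNA itself was not measured in these libraries.

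Most miRNAs are made in steps. The Microprocessor, made of the nuclease DROSHA and its partner DGCR8, releases a hairpin from a long primary transcript, and DICER then trims it to a duplex. One strand of the duplex is kept by an Argonaute protein and guides it to messenger RNAs through its seed, while the other strand is mostly lost. ERH is a small conserved protein that binds DGCR8, and the study asks how it bears on hairpins that lie beside others in the genome. miR-125a-5p is a relative of lin-4 of the nematode worm and is known in mouse blood stem cells, where it holds down the cell death gene Bak1. miR-125a-3p is the strand that is usually discarded.

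The sequences below show what the arms share with other miRNAs. They are RefSeq sequences (GRCh38.p14), 5′ to 3′, with the seed (bases 2 to 8) in capitals, and both members were matched by name. let-7e-5p is shown as the reference and miR-125b-5p because it has the seed of miR-125a-5p.
hsa-miR-125a-5p: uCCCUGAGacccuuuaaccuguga
hsa-miR-125a-3p: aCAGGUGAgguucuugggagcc
hsa-let-7e-5p: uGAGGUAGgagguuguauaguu
hsa-miR-125b-5p: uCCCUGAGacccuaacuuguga

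miR-125a-5p and miR-125b-5p are identical over their first 13 bases. Of the miRNAs in the count tables that have a RefSeq sequence, 3 carry the seed of miR-125a-5p, namely itself, miR-125b-5p and miR-4319. Among them miR-125a-3p was alone with its seed. Names without a RefSeq sequence were not searched.

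The hairpin that holds both arms is 86 bases long and lies on the plus strand of chromosome 19, at chr19:51693254-51693339 (GRCh38). It is printed with the 5p arm and then the 3p arm in capitals, to show how close the arms are to each other.
MIR125A: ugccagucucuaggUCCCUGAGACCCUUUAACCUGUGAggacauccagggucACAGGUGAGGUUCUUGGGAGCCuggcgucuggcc

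MIR125A is the last of 3 hairpins on this strand, after MIR99B and MIRLET7E, and the 3 together span 728 bases. Between MIR99B and MIRLET7E lie 104 bases, and between MIRLET7E and MIR125A lie 389 bases. In GENCODE 29 the hairpin is within the intron between exons 1 and 2 of the SPACA6 transcript SPACA6-214, and on the opposite strand it overlaps exon 1 of the long noncoding RNA SPACA6P-AS (chr19:51692634-51693456). Folded in silico, MIR125A had a minimum free energy of -46.2 kcal/mol, or -0.54 per base, with 20 of the 24 bases of the 5p arm paired. A lower energy per base was computed for 25.3% of 1560 RefSeq hairpins. The energy per base was -0.46 for MIRLET7E, with 46.2% of hairpins lower, and -0.42 for MIR99B, with 60.5% lower. Of the 3 annotated hairpins, MIR125A thus had the lowest energy per base.

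**Figure D1:**
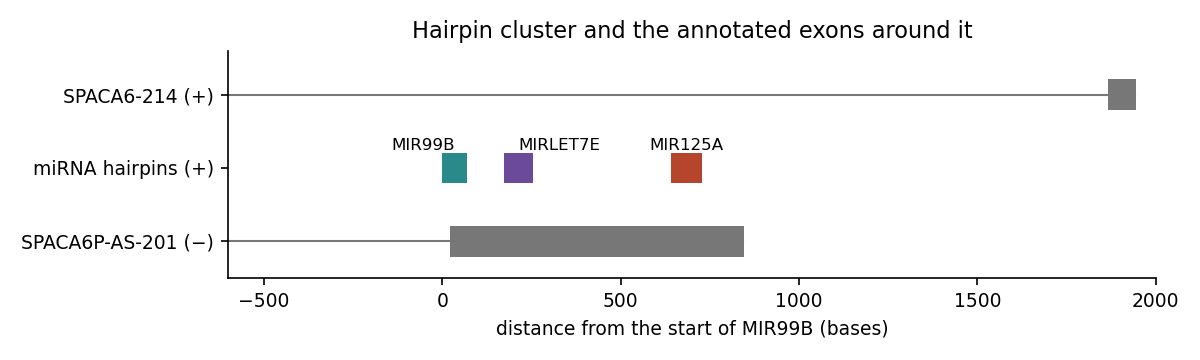
Map of the hairpin cluster, with the distance from the start of MIR99B in bases on the x axis, boxes for exons and hairpins, and lines for introns. The 3 hairpins lie within 728 bases in an intron of SPACA6-214 (exon 1 is off the map to the left). On the other strand, an exon of SPACA6P-AS faces all of MIRLET7E and MIR125A and part of MIR99B.

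The libraries held 2227374 and 2393565 miRNA reads after ERH knockdown (gRNA1, then gRNA2) and 1430434 and 2476700 in controls. K562 cells were recognisable by their blood miRNAs. The summed level of 6 such miRNAs (miR-451a, both miR-144 arms, miR-486-5p, miR-223-3p, miR-142-3p) was 116191 to 118493 CPM after knockdown and 147325 to 156576 CPM in controls, where CPM is the count scaled to a common library total after TMM scaling. The direction of this gap depends on the scaling. By library size alone the sum was higher in both knockdown libraries than in both controls. Of these 6, 2 rose and 3 fell in edgeR with TMM scaling, where 25.6% of all 464 tested miRNAs were called as higher and 25.2% as lower. The 2 that rose were the arms of miR-144, with log2 fold changes of 0.74 (3p) and 0.88 (5p). Those of miR-451a, miR-223-3p and miR-142-3p, which fell, were -0.48, -0.54 and -0.54. The part of these 6 miRNAs in the results below was not tested. Of 9 names typical of other cell types, 7 had a row. Their sum was 437 to 445 CPM after knockdown and 434 to 489 CPM in controls, most of it miR-9-5p, and of the 7 only the muscle miRNA miR-206 was at 0 in all 4 libraries. Of the 3 that were tested, 1 rose and 0 fell, the epithelial miRNA miR-200c-3p having 73.7 and 67.9 CPM after knockdown and 54.7 and 56.0 CPM in controls (log2 fold change 0.35, edgeR adjusted p = 0.044). The muscle miRNA miR-1-3p, too low to be tested, was counted 8 and 6 times in the knockdown libraries, against 1 and 1 times in the control libraries. Also too low to be tested, miR-122-5p (liver) was counted 5 and 2 times after knockdown against 1 and 4 in controls. For miR-124-3p (neurons) these counts were 0 and 1 against 0 and 0. All these counts are unscaled.

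miR-125a-5p was far more abundant than miR-125a-3p. By the mean level in controls, the 5p arm ranked 28th and the 3p arm 176th of 464 tested miRNAs. miR-125a-5p had 13682 and 14972 reads in the knockdown libraries (gRNA1, then gRNA2, as in each list below), against 8025 and 12901 in the control libraries. miR-125a-3p had 175 and 181 reads in the knockdown libraries, against 127 and 216 in the control libraries. let-7e-5p had 4205 and 4481 reads in the knockdown libraries, against 2174 and 3499 in the control libraries. Counting error alone gives the 3p counts an exact 95% Poisson interval of 13.6% to 17.8% of the count on each side, against 1.61% to 2.19% for the 5p counts. Reads are not independent molecules here, so such intervals cover counting error only.

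After TMM scaling, both arms were lower in both knockdown libraries than in both controls. With library size alone, the log2 ratio of knockdown to control for miR-125a-5p was positive, at 0.13 for gRNA1 and 0.26 for gRNA2. With TMM, miR-125a-5p stood at 5198 and 5466 CPM after knockdown and at 6365 and 6225 CPM in controls. The means were 5332 ± 190 CPM after knockdown and 6295 ± 99.2 CPM in controls (SD, n = 2 each). miR-125a-3p stood at 66.5 and 66.1 CPM after knockdown and at 101 and 104 CPM in controls, with means of 66.3 ± 0.28 and 102 ± 2.5 (SD, n = 2 each). In both arms the groups did not overlap, as was the case, in the same direction, for 34.9% of the 464 tested miRNAs. The gap between groups was many times the spread within them for the 3p arm, but that spread was smaller than counting error. The Poisson intervals given above reach 13.6% to 17.8% of the 3p count on each side. The spread between 2 libraries is therefore no measure of how precise these 3p levels are. let-7e-5p stood at 1598 and 1636 CPM after knockdown and at 1724 and 1688 CPM in controls, closer together than either arm of miR-125a in relative terms.

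**Figure D2:**
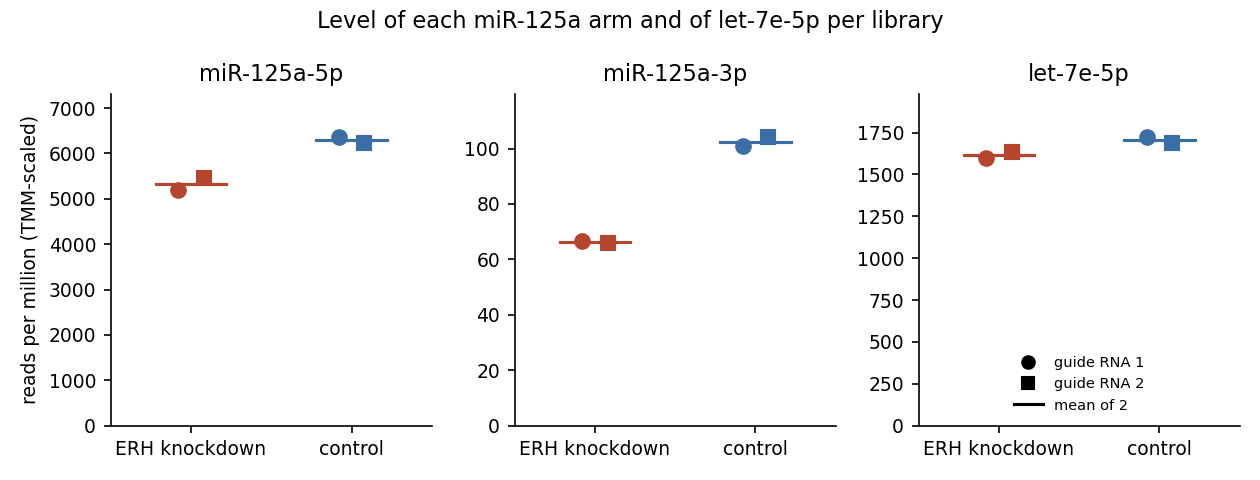
TMM-scaled CPM (y axis, from 0) of miR-125a-5p, miR-125a-3p and let-7e-5p in each library, with ERH knockdown left of control, circles for gRNA1, squares for gRNA2 and lines for the mean of the 2. Relative to its level, the 3p arm shows the widest gap, with 66.5 and 66.1 against 101 and 104.

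With TMM scaling both arms were called as lower, with the larger estimate for the 3p arm, while the change in their ratio, given below, did not pass. miR-125a-5p fell by 0.24 ± 0.05 on the log2 scale (SE of the fit, 2 libraries per group; adjusted p = 0.0015, edgeR quasi-likelihood test), but with library size alone its value was 0.20 and called as a rise (adjusted p = 0.0042), and with the spike-in RNAs it was 0.46 and not called. Within guide RNAs its log2 ratio of knockdown to control was -0.29 for gRNA1 and -0.19 for gRNA2. miR-125a-3p fell by 0.63 ± 0.12 (adjusted p = 5.4e-04), while its value was -0.19 with library size and 0.05 with the spike-in RNAs, neither called. Its log2 ratio was -0.59 for gRNA1 and -0.65 for gRNA2. The fall of the 5p arm was not called without knockdown replicate 1 (-0.21, adjusted p = 0.078). That of the 3p arm kept its call without any 1 of the 4 libraries (adjusted p = 0.0024 to 0.030).

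These calls have to be read against how common they were. Of 464 tested miRNAs 50.9% were called in either direction and 25.2% were called as lower, so a call as such does not set the miR-125a arms apart. Over all tested miRNAs, the log2 fold change had a median of 0.06. A lower fold change than that of miR-125a-5p was seen for 141 of them (30.4%), and a lower one than that of miR-125a-3p for 52 (11.2%). The median itself lay 0.44 higher with library size and 0.68 higher with the spike-in RNAs. Measured from the median, miR-125a-5p stood at -0.30 with TMM, -0.31 with library size and -0.29 with the spike-in RNAs. The same distance for miR-125a-3p was -0.70, -0.69 and -0.69. A scaling moves all miRNAs of a library alike, so these distances stay close by construction. They place the arms among the miRNAs and say nothing of the absolute level.

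**Figure D3:**
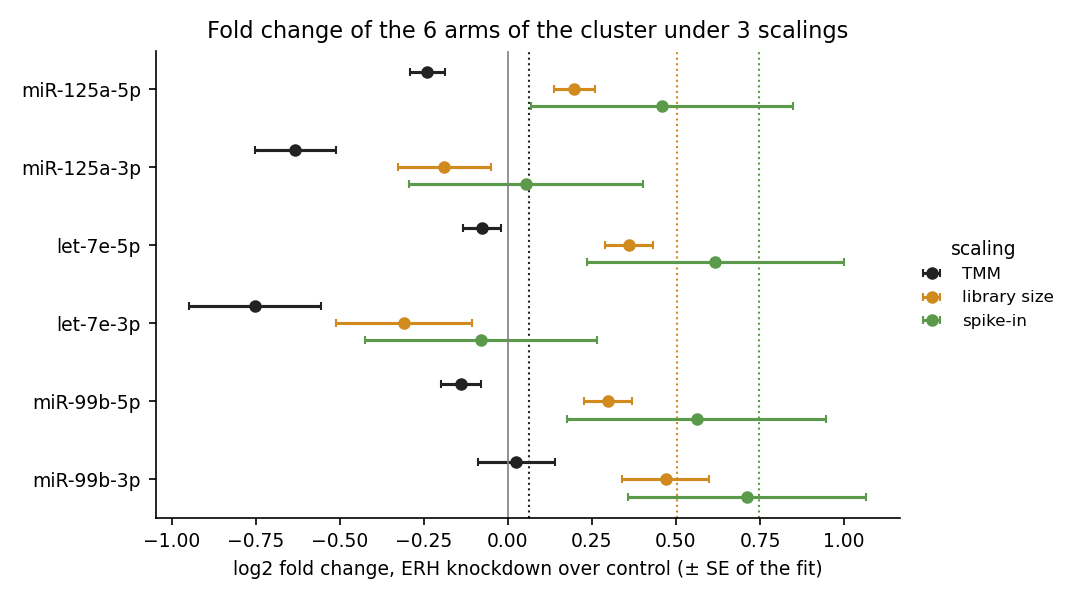
Log2 fold change, ERH knockdown over control (x axis), of the 6 arms of the cluster under TMM, library size and spike-in scaling, with the SE of the fit as bars and the median of all tested miRNAs as dotted lines. Each scaling shifts all 6 arms nearly alike, miR-125a-5p lying at -0.24, 0.20 and 0.46. The order of the 6 arms is the same under all 3, which follows largely by construction.

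The ratio of the arms within a library needs no such scaling. There were 1.28 and 1.21 reads of miR-125a-3p per 100 reads of miR-125a-5p after knockdown, and 1.58 and 1.67 in controls. The means were 1.24 ± 0.050 after knockdown and 1.63 ± 0.065 in controls (SD, n = 2 each). As a share of the reads of both arms, the 3p arm took 1.26% (exact 95% binomial interval 1.08% to 1.46%) and 1.19% (1.03% to 1.38%) after knockdown. In controls it took 1.56% (1.30% to 1.85%) and 1.65% (1.44% to 1.88%). Both knockdown libraries lay below both controls, and the intervals overlapped for gRNA1 but not for gRNA2.

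The mean arm ratio after knockdown was 0.764 of that in controls. Within gRNA1 the ratio after knockdown was 0.808 of its control, with an exact 95% counting interval from 0.638 to 1.03, and within gRNA2 it was 0.722, with an interval from 0.588 to 0.885. Across libraries the log2 ratio of 3p to 5p differed by -0.39 ± 0.14 (SE; 95% interval -0.76 to -0.02). In limma fitted over all 109 hairpins with both arms tested, the adjusted p was 0.24 (0.044 unadjusted), so the change in arm ratio did not pass. The adjusted p ran from 0.15 to 0.61 over 9 alternatives. An exact two-sided permutation test of 2 libraries against 2 gave p = 0.33, the smallest it can give. In limma 0 of the 109 hairpins passed (0%), and 21 had an unadjusted p under 0.05, with miR-125a 20th by p. With the guide RNA as a block 9 hairpins passed, and with a prior variance that follows read depth 14 did, miR-125a in neither.

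A lower 3p-to-5p ratio without overlap of the groups was found for 25 of the 109 hairpins (22.9%), miR-125a among them. The median change over all 109 was 0.05 on the log2 scale, and 13 changed further down than miR-125a. In 66 hairpins the 3p arm was the less abundant one, as it is in MIR125A. Their median was -0.03, and 11 of them lay lower than miR-125a. The log2 ratio of the less abundant to the more abundant arm changed by a median of -0.08 and was negative in 65 of the 109 hairpins.

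**Figure D4:**
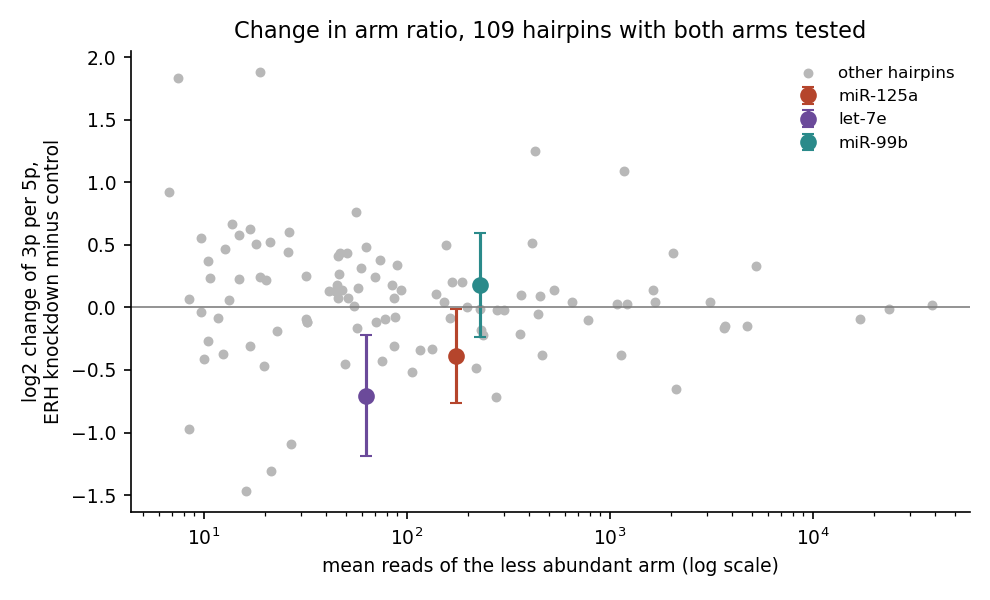
Change in the log2 ratio of 3p to 5p reads, ERH knockdown minus control (y axis), against the mean reads of the less abundant arm (x axis, log scale) for 109 hairpins, with limma 95% intervals on the 3 hairpins of the cluster. miR-125a lies at -0.39 and let-7e at -0.71, below most hairpins, and miR-99b lies at 0.18.

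The other hairpins of the cluster differed in what their arms did. let-7e-5p belongs to the let-7 family, which represses growth genes, and miR-99b-5p to the miR-99/100 family, known for targeting MTOR. Of the 4 other arms of the cluster, 1 fell and 0 rose in edgeR, against the 25.2% called as lower among all tested miRNAs, and their median log2 fold change was -0.11. let-7e-3p, counted at 58 and 65 reads in the knockdown libraries against 57 and 71 in the control libraries, fell by 0.75 ± 0.20 (SE; adjusted p = 0.0055), a call lost with library size (-0.31), with the spike-in RNAs (-0.08) and without knockdown replicate 1 (-0.71). let-7e-5p was at -0.08 ± 0.06 (adjusted p = 0.28), miR-99b-5p at -0.14 ± 0.06 (adjusted p = 0.064) and miR-99b-3p at 0.03 ± 0.11 (adjusted p = 0.86). With library size these 3 were positive and called, at 0.36, 0.30 and 0.47. miR-99b-5p was called as lower with DESeq2 (-0.19, adjusted p = 0.040) and with RLE factors in edgeR (-0.19, adjusted p = 0.016).

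Among the 3p arms, those of miR-125a and let-7e were lower per 5p read after knockdown and that of miR-99b was not. There were 1.38 and 1.45 reads of let-7e-3p per 100 of let-7e-5p after knockdown, and 2.62 and 2.03 in controls. There were 5.74 and 5.15 reads of miR-99b-3p per 100 of miR-99b-5p after knockdown, and 4.48 and 5.12 in controls. The log2 changes were -0.71 ± 0.18 for let-7e (limma, adjusted p = 0.15) and 0.18 ± 0.16 for miR-99b (limma, adjusted p = 0.65). That of let-7e passed in limma with a prior variance that follows read depth (adjusted p = 0.011) and with a mean of at least 10 CPM (adjusted p = 0.042). let-7e-3p is counted far less than miR-125a-3p, and its control values lie further apart than those of miR-125a.

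Set against let-7e-5p, the miR-125a arms were again lower after knockdown. let-7a-5p, let-7c-5p and let-7d-5p, which share the seed of let-7e-5p, had no row. How reads that match several let-7 miRNAs were assigned is not given in the sources used here. Whether the let-7e-5p counts hold reads of other let-7 miRNAs was not tested. For each read of let-7e-5p there were 3.25 and 3.34 reads of miR-125a-5p after knockdown, and 3.691 and 3.687 in controls. The means were 3.30 ± 0.062 after knockdown and 3.69 ± 0.0030 in controls (SD, n = 2 each). The 2 controls were nearly equal, and both knockdown libraries lay below them. The difference between the controls was smaller than counting error. Their let-7e-5p counts alone have a 95% Poisson interval of 3.33% to 4.23% on each side. Within gRNA1 the ratio was 0.881 of its control (exact 95% counting interval 0.831 to 0.935) and within gRNA2 0.906 (0.862 to 0.953). The log2 ratio differed by -0.16 ± 0.08 (SE; 95% interval -0.41 to 0.08), which did not pass in limma over 463 miRNAs (adjusted p = 0.21), while with a prior variance that follows read depth it did (adjusted p = 0.025, in a range of 0.025 to 0.57 over 10 alternatives). Per miR-99b-5p in place of let-7e-5p the difference was -0.099 (limma adjusted p = 0.57).

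For miR-125a-3p there were 4.16 and 4.04 reads per 100 reads of let-7e-5p after knockdown, and 5.84 and 6.17 in controls. The means were 4.10 ± 0.087 after knockdown and 6.01 ± 0.23 in controls (SD, n = 2 each). The log2 ratio differed by -0.55 ± 0.09 (SE; 95% interval -0.81 to -0.29) and passed in limma (adjusted p = 0.030). With the guide RNA as a block it did not pass (adjusted p = 0.065), nor per miR-99b-5p in place of let-7e-5p (0.051), nor without any 1 of the libraries (0.055 to 0.16). In this comparison 33.0% of the 463 miRNAs were called in either direction in limma, and 66 of the 463 were called as lower. Without regard to calls, 29.2% were lower in both knockdown libraries than in both controls, as both arms of miR-125a were. The median log2 difference over the 463 was 0.12, and 138 lay lower than miR-125a-5p and 52 lower than miR-125a-3p. Either exact two-sided permutation test of these ratios gave the smallest p possible, 0.33.

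**Figure D5:**
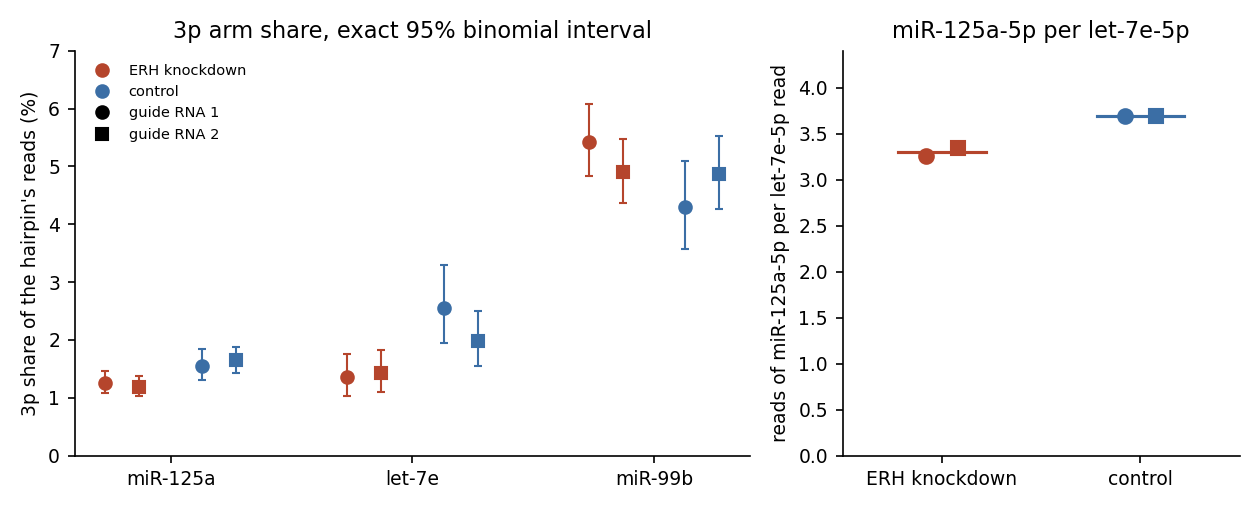
Left, share of each hairpin's reads that come from the 3p arm (%, y axis) for miR-125a, let-7e and miR-99b, with exact 95% binomial intervals and ERH knockdown left of control in each hairpin. Right, reads of miR-125a-5p per read of let-7e-5p in each library, with lines for the mean of the 2, at 3.25 and 3.34 after knockdown against 3.691 and 3.687 in controls.

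Those relatives of the cluster at other loci that had a row were nearly absent. The paralogous clusters on chromosomes 11 and 21 give miR-125b, miR-100, miR-99a and let-7 miRNAs. Of 11 such names 9 had a row, 6 of these were at 0 in all libraries, and none passed the filter. The names without a row were let-7a-5p and let-7c-5p, so their level is unknown here. miR-125b-5p, which shares the seed and the first 13 bases of miR-125a-5p, had 17 and 10 reads in the knockdown libraries, against 1 and 3 in the control libraries. That is 1.24 and 0.668 reads per 1000 reads of miR-125a-5p after knockdown, and 0.125 and 0.233 in controls. With no filter on low counts its log2 fold change was 2.03 ± 0.65 (SE; edgeR adjusted p = 0.012 over 1242 miRNAs). With the usual filter it entered the test only when a library was left out, with an adjusted p of 0.025 without knockdown replicate 2, 0.18 without control replicate 1 and 0.19 without control replicate 2. How reads that match both sequences were assigned is not given in the sources used here, so these few reads are uncertain. miR-4319 was at 0 in all 4 libraries.

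Among the other 463 tested miRNAs, likeness to each arm was measured as the distance between centred log2 CPM profiles over the 4 libraries. Nearest to miR-125a-5p were miR-361-5p (distance 0.037), miR-675-3p (0.056) and miR-26b-5p (0.068). Their log2 fold changes were -0.25 ± 0.07, -0.20 ± 0.27 and -0.24 ± 0.05, of which the first and the last were called (edgeR adjusted p = 0.0072 and 0.0012). The call of miR-361-5p was lost with no filter (edgeR adjusted p = 0.051), without knockdown replicate 1 (0.086) and without knockdown replicate 2 (0.057). That of miR-26b-5p was lost without knockdown replicate 1 (0.060), and with library size it was called as a rise (0.20, edgeR adjusted p = 0.0024). Nearest to miR-125a-3p were miR-224-5p (0.042), miR-15b-5p (0.046) and miR-374b-5p (0.087), with log2 fold changes of -0.66 ± 0.05, -0.60 ± 0.05 and -0.69 ± 0.06, all 3 called, though not with the spike-in RNAs. Among all tested miRNAs 25.2% were called as lower. Nearness was measured over the same 4 libraries, so fold changes close to those of each arm follow from the choice. The arms themselves were 0.39 apart, so that miR-125a-3p was only the 160th nearest to miR-125a-5p, while let-7e-5p was the 40th at 0.16. These distances carry counting error, which weighs most on miRNAs with few reads, such as miR-125a-3p and miR-675-3p.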

How the data were processed

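The deposited tables hold raw read counts per mature miRNA, 1 table per library of gel-purified small RNA, as the values show. Neither labels nor tables state the trimming, aligner, annotation, build or treatment of reads that match several miRNAs. Each table has 2368 rows, 2 of them spike-in RNAs by name, which were kept out of totals and tests. Groups and guide RNA numbers came from the labels. Members, lists and tests were chosen with earlier results of these data known.

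A filter (filterByExpr, at least 10 reads, total at least 15) left 464 miRNAs holding 99.9% of reads. TMM-scaled counts entered edgeR 4.0.16 (R 4.3.3, quasi-likelihood test, no block), with p adjusted by Benjamini-Hochberg over all tested miRNAs and called at 0.05. The biological coefficient of variation was 5.08%. Log2 CPM used a prior count of 2. Ratios of 2 counts used a pseudocount of 0.5 and limma 3.58.1 with 1 prior variance. Fits were tested on data simulated without line effects or a common shift between groups, which cannot bear on the choice of scaling. Alternatives were DESeq2 1.42.0, other scalings, filters, pseudocounts and prior variances, and leaving out libraries. Named miRNAs are the members, their cluster and paralogous clusters, those sharing a seed, and the 3 nearest profiles per arm. Hairpins were folded with RNAfold 2.7.2, and plots drawn with matplotlib 3.10.9.

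Each guide RNA number marks 1 polyclonal line, which pairs a knockdown library with its control by design, though deviations from the group means were not shared within a line (correlation -0.11 across miRNAs). With 1 culture per line and condition, p-values reflect only how far these libraries differ. Replicates were no duplicates of each other, with a chi-square per degree of freedom of 3.93 between the knockdown libraries and 10.1 between the controls. Where a count is 0, up to 3 reads are possible, or 1.10 to 2.38 TMM-scaled CPM.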

Additional observations from a re-analysis of the deposited data

Results flagged for a closer look

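miR-99b-3p moved in opposite directions within the 2 guide RNAs under TMM scaling, with a log2 ratio of knockdown to control of 0.13 for gRNA1 and -0.05 for gRNA2, which are 0.19 apart. Each guide RNA has 1 library per group, so this difference was not tested. The directions were alike under the other scalings, at 0.55 for gRNA1 and 0.39 for gRNA2 with library size and at 0.83 and 0.62 with the spike-in RNAs.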

How the results depend on the processing

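The scaling between libraries decided the direction of the arms. With library size alone the log2 fold change was 0.20 for miR-125a-5p, -0.19 and not called for miR-125a-3p, 0.36 for let-7e-5p, 0.30 for miR-99b-5p, 0.19 and not called for miR-361-5p, 0.24 and not called for miR-675-3p, and 0.20 for miR-26b-5p. With the spike-in RNAs it was 0.46 for miR-125a-5p, 0.053 for miR-125a-3p, 0.62 for let-7e-5p, 0.56 for miR-99b-5p, 0.44 for miR-361-5p, 0.47 for miR-675-3p, 0.45 for miR-26b-5p, 0.033 for miR-224-5p, 0.087 for miR-15b-5p and 0.0074 for miR-374b-5p, none called. miR-99b-3p was at -0.020 with DESeq2 and -0.026 with RLE factors. Leaving out 1 library at a time gave -0.28 to -0.21 for miR-125a-5p, -0.66 to -0.63 for miR-125a-3p, -0.050 to 0.10 for miR-99b-3p, -0.43 to -0.35 for the arm ratio, -0.18 to -0.14 for miR-125a-5p per let-7e-5p and -0.59 to -0.51 for miR-125a-3p per let-7e-5p. The last was not called in any of these 4 fits, nor with the replicate block (-0.55), nor per miR-99b-5p (-0.49). miR-125a-5p per let-7e-5p (-0.16) was called when the prior variance followed depth. The block changed no other call of the miR-125a arms.

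In all, 236 miRNAs were called, 119 up and 117 down, against 150 with DESeq2 (48 up) and 117 to 195 without 1 library. Library size called 273 as higher and 41 as lower. Spike-in scaling called 186 as higher and 8 as lower. The arm ratio of miR-125a was not called in any alternative, though the number of hairpins called was 9 with the replicate block, 5 with a pseudocount of 2, 6 with a mean of at least 10 CPM and 14 with the depth-dependent prior variance. miRNAs called per let-7e-5p numbered 153, against 234 with that prior variance, 0 without either knockdown library, 51 without control replicate 1 and 91 without control replicate 2. With the guide RNA numbers crossed as a block, an alternative added after seeing the data, 241 miRNAs were called. The causes were not tested. The depth of miR-125a-3p, at most 216 reads a library, limits its ratios.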
